A study of Mus musculus with 4 samples.

Results

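Imprinted genes are expressed mainly from the copy inherited from a single parent, and most are grouped in domains under a shared control region. In such a region the DNA is methylated on the maternal or on the paternal copy, so a bulk measurement over both copies reads an intermediate level. TET enzymes oxidise 5-methylcytosine (5mC) to 5-hydroxymethylcytosine (5hmC), a step by which methylation can be removed. In blood stem cells the H19-Igf2 and Dlk1-Meg3 domains are known for their part in quiescence.

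The 34 imprinted genes described here lie in 19 domains outside the Kcnq1 domain, among 34631 protein-coding and long non-coding genes of the RefSeq gene table (GRCm38.p6). They were taken from a list of known imprinted genes, and a CpG counted for a gene from 2000 bp before to 2000 bp after its body. The members held 119 of the 53206 positions of the authors' deposited 5mC table and 223 of the 71864 positions of their 5hmC table. Bone marrow LSK cells, the lineage-negative, Sca-1-high, c-Kit-positive stem and progenitor fraction, of WT mice were compared with those of HDAC6 KO mice. Each genotype had 1 WGBS (bisulfite) library, titled 5mC, and 1 oxWGBS (oxidative bisulfite) library, titled 5hmC, so the 4 libraries form 4 groups of 1. The labels give no age, sex, strain or deleted exon, and no value below has a replicate check. HDAC6 is a lysine deacetylase, and the study's title links it to IDH1, an enzyme that makes the co-substrate of TET enzymes. Positions listed by the authors all have p under 0.01 and a difference of at least 10 percentage points, and are called listed sites below. Without stated coverage no interval can be set for a single level, a level of 0 or 100% can rest on few reads, and the maternal and paternal copies cannot be told apart. The tables hold differing positions alone, so neither the LSK label nor the genotype could be checked against marker genes.

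The promoter stretches below are shown because they hold listed CpGs of member genes, in capitals, and differ in which mark was listed there. Each is the 250 bases before an annotated start, 5′ to 3′ on the gene's strand, from RefSeq (GRCm38.p6). The Gnas stretch is chr2:174327499-174327748 on the plus strand, with 3 CpGs listed for 5mC (the first 3 in capitals) and 3 for 5hmC among its 21. The Nap1l5 stretch is chr6:58907127-58907376 on the minus strand, with 2 CpGs listed for 5hmC among 10. The Mest stretch is chr6:30733256-30733505 on the plus strand, with 1 of 7 CpGs listed, for 5mC. The Nnat stretch is chr2:157559828-157560077 on the plus strand, with 1 of 12 CpGs listed, for 5hmC. The Dlk1 stretch is chr12:109452573-109452822 on the plus strand, with 1 of 8 CpGs listed, for 5hmC.
Gnas: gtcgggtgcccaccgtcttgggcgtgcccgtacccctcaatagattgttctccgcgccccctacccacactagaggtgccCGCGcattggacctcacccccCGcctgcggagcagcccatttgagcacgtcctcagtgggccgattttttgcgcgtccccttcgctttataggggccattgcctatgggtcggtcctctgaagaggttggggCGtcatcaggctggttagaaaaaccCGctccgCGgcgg
Nap1l5: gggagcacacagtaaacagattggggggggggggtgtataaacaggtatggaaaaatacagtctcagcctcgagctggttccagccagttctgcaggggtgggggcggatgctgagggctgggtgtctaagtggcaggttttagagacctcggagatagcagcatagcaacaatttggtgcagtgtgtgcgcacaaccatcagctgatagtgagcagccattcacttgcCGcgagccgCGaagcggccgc
Mest: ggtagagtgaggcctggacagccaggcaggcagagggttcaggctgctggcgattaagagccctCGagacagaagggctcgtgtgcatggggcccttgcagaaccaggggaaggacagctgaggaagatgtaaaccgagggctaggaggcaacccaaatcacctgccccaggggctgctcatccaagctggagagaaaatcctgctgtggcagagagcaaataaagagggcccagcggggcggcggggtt
Nnat: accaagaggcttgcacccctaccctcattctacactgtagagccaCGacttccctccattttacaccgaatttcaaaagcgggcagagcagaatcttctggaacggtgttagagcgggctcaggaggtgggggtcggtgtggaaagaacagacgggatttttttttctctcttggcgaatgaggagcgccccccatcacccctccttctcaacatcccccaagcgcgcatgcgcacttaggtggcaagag
Dlk1: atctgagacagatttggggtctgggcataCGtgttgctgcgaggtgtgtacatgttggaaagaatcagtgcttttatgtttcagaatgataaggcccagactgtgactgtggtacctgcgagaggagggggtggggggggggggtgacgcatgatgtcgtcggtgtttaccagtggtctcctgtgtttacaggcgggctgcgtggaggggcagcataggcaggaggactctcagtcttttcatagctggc
The motif TGCCGC, which ZFP57 is known to bind when methylated at imprinting control regions, was searched on both strands in windows from 250 bases before to 50 after a start. It stood in 9 of the 47 windows of the 30 members with a window (19.1%), against 8.68% of all 32851 windows; windows were not matched for CpG content. Of the stretches printed, that of Nap1l5 held the single match, and the CpG in that match is a listed 5hmC site.

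At imprinted genes 5mC was higher in KO cells at 66 of 119 listed sites and lower at 53. That is 55.5% (95% Wilson interval 46.5 to 64.1%), beside 40.3% of all listed 5mC sites. For 5hmC 124 of 223 member sites were higher and 99 lower, which is 55.6% (49.0 to 62.0%), beside 64.4% of all listed 5hmC sites. These intervals cover counting alone and treat neighbouring CpGs as independent, which they are not. The median 5mC difference, KO minus WT, was 21.25 points at member sites and -23.26 points over the whole table. The median 5hmC difference was 14.6 points at member sites and 22.2 points over the whole table. Both directions depended on the sites counted. Of the 13 member 5mC sites with deposited p under 0.001 only 30.8% were higher, with a median difference of -30.56 points. Without the Snrpn-Ube3a domain 49.7% of 155 5hmC sites were higher, with a median of -10.91 points. Without Gnas 50.9% of 106 5mC sites were higher.

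**Figure D1:**
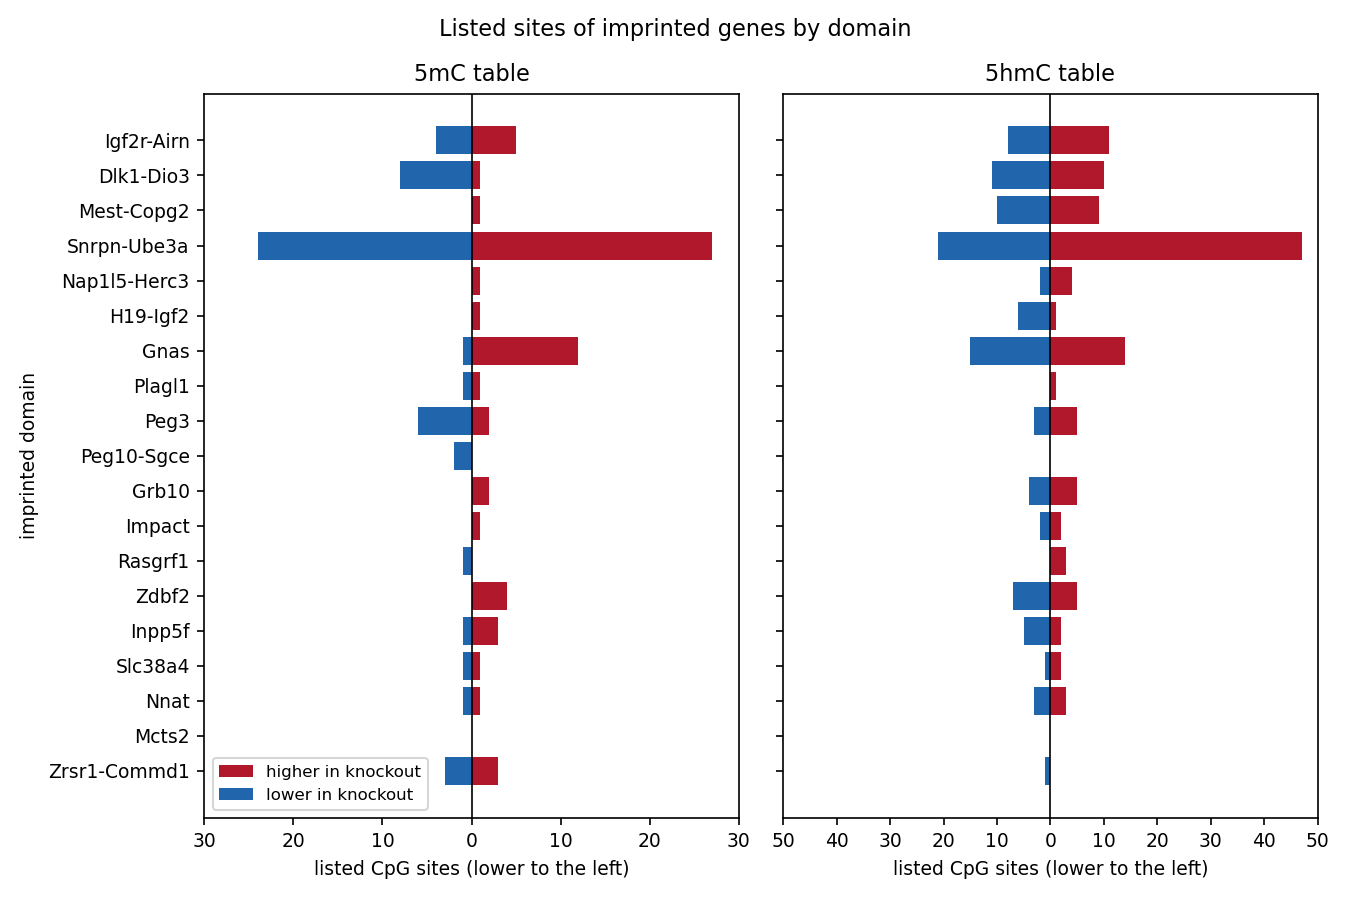
Number of listed CpG sites per imprinted domain (vertical axis) that were higher (red, to the right) or lower (blue, to the left) in the knockout, for 5mC and 5hmC. Snrpn-Ube3a holds more sites than any other domain in both tables, with 51 of 119 for 5mC and 68 of 223 for 5hmC. For 5mC, 12 of the 13 Gnas sites are higher, and 8 of the 9 Dlk1-Dio3 sites are lower. Over all listed 5mC sites 40.3% are higher.

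A listed 5mC site was present at 26 of 34 members, beside 42.3% of all genes, and a listed 5hmC site at 29 of 34, beside 49.6% of all genes. Longer genes hold more sites, so the counts are also given by length. Of 8 members under 10 kb, 4 had a 5mC site (24.7% of all genes of that length) and 6 a 5hmC site (34%). Of 18 members from 10 to 100 kb, 15 had a 5mC site (50.5%) and 15 a 5hmC site (57.2%). Of 8 members of 100 kb and over, 7 had a 5mC site (88.7%) and 8 a 5hmC site (88.8%). Per 100 kb of gene with its flanks there were 4.01 5mC sites at members and 2.32 at all genes. The same density for 5hmC was 7.52 at members and 3.45 at all genes. CpG density and coverage, which bear on these densities, were not measured here. Ube3a, the ubiquitin ligase gene that Snhg14 silences in neurons, and Mcts2, a retrogene inside H13, held no site in either table.

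No member 5mC site had q under 0.05, beside 0.175% of all 5mC sites, and the smallest q was 0.075 in the authors' deposited table. For 5hmC 3 of 223 sites (1.35%) had q under 0.05, beside 1.08% of all sites, and they lie in Impact, Snhg14 and Mest. Both shares are near the background. All p and q below are the authors' own, and they compare single libraries.

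Listed 5mC sites of imprinted genes were more often at an intermediate WT level than listed sites as a whole. The median WT level was 64.0% (quartiles 38.9 and 94.1%) at member sites and 84.3% (55.6 and 100%) over all listed sites. Between 25 and 50% in WT lay 34 of 119 member sites, beside 12.5% of all listed 5mC sites, a range chosen after the values were seen. All 34, in 10 domains, were higher in KO cells, with a median KO level of 71.0%. Gnas alone held 12 of the 34, in short groups of neighbours, and others were neighbours at Igf2r and Zrsr1, so they are not independent. Most listed sites in this range were higher whatever the gene (83.5%).

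**Figure D2:**
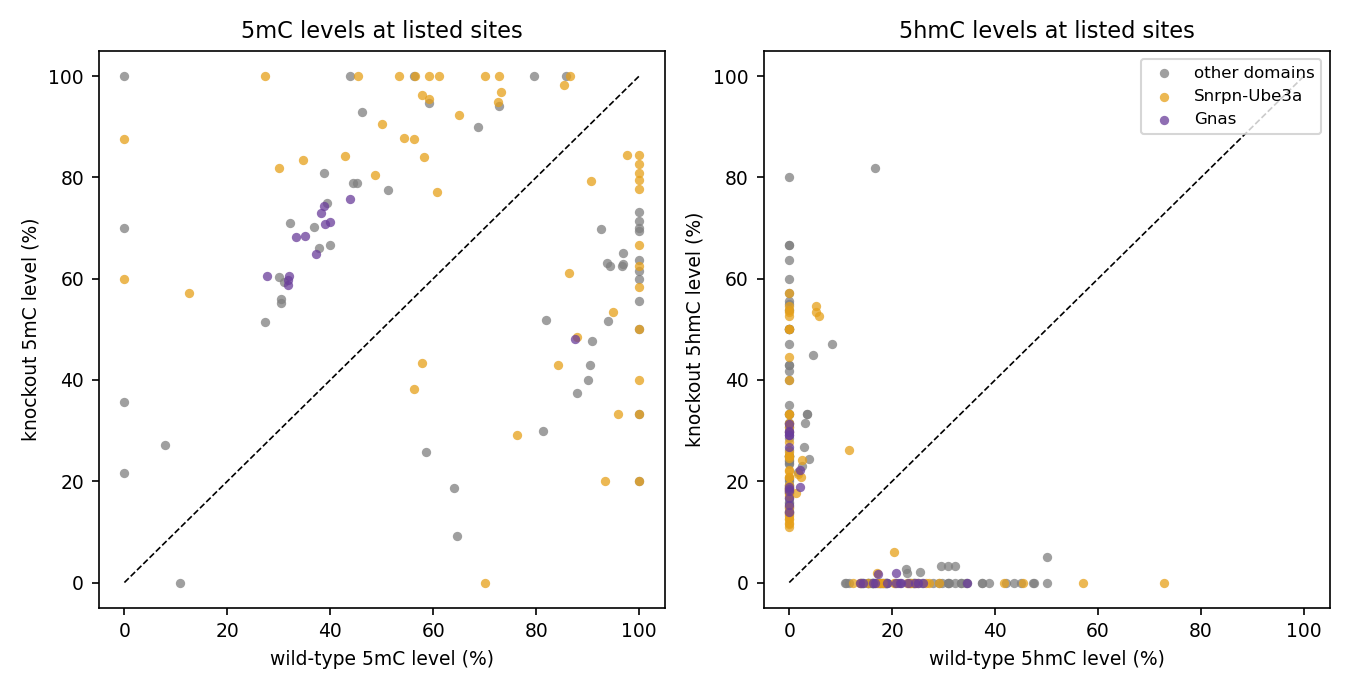
Knockout level against wild-type level in percent for each listed site of an imprinted gene, for 5mC (left) and 5hmC (right); the dashed line marks equal levels. The Gnas 5mC sites sit together between 27.7 and 43.9% in wild type, apart from 1 site at 87.5%, and most 5hmC sites lie at 0% in a single genotype.

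Part of the listed sites of imprinted genes stood in groups of neighbours. Groups of at least 3 neighbouring listed CpGs of the same direction, each within 500 bp of the next, took in 18 of the 119 5mC sites, beside 2.85% of all listed 5mC sites. Gnas alone held 12 of these 18, and without it 6 of 106 5mC sites (5.66%) were in groups. For 5hmC such groups took in 73 of 223 sites, beside 4.97% of all, and 58 of 194 (29.9%) without Gnas. All 4 5mC groups were higher in KO cells, at Gnas, Igf2r and Zrsr1. Of the 16 5hmC groups, in 10 domains, 7 were higher and 9 lower. The rule for groups was chosen after the values were seen, and CpG density was not matched between member sites and all listed sites.

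Gnas encodes the stimulatory G protein alpha subunit and has several promoters, some of them imprinted. Its 9-CpG group at chr2:174300224-174300520 had 5mC of 27.7 to 40% in WT and 58.8 to 74.4% in KO cells, per the authors' deposited table. The 3-CpG group at chr2:174327579-174327600, the first capitals of the Gnas stretch above, lay 149 to 170 bp before an annotated start. There the authors' deposited table gave levels of 38.1 and 73.0%, 43.9 and 75.7% and 39.0 and 70.7%, WT before KO. In both groups each KO value was above each WT value. The remaining Gnas 5mC site, position 174294409, was lower, with 87.5% in WT and 48% in KO cells in the authors' deposited table. All 13 sites had q of 1 there, and the smallest p was 0.000612. Of the 29 Gnas 5hmC sites 14 were higher and 15 lower, and neighbouring groups had opposite directions. In the last 38 bp before the same start, 3 CpGs had 5hmC of 0% in WT and 13.9 to 16.7% in KO cells, per the authors' deposited table. From 174286034 to 174286151, 5 CpGs had 16.7 to 25% in WT and 0% in KO cells, and from 174286344 to 174286488, 4 CpGs had 0 to 2.13% in WT and 18 to 18.9% in KO cells, per the authors' deposited table. From 174299304 to 174299343, 3 more had 17.2 to 20.7% in WT and 0 to 1.79% in KO cells in that table. The Gnas 5hmC site with the largest difference, position 174300927, had 34.5% in WT and 0% in KO cells in the authors' deposited table.

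Igf2r encodes the receptor that clears IGF2, and the long non-coding RNA Airn, transcribed from the paternal copy, silences it there. At 215 to 229 bp past the Igf2r start, in sequence that Airn also spans, 3 CpGs had 5mC of 27.3 and 51.4%, 30.4 and 56% and 30.4 and 55.3%, WT before KO, in the authors' deposited table. In the 22 bp around them, 6 CpGs had 5hmC of 15.4 to 19.1% in WT and 0% in KO cells, per the authors' deposited table. Positions 12769486 and 12769491 were listed for both marks, with 5mC higher and 5hmC lower. The other CpGs of this stretch were listed for a single mark. Near the same gene end, position 12769316 went the other way, with 5hmC of 0% in WT and 15.8% in KO cells in the authors' deposited table. At 1162 to 1390 bp past the Airn start, also inside Igf2r, 7 CpGs had 5hmC of 0 to 1.72% in WT and 14 to 26.2% in KO cells, with p down to 3.4e-05 (q = 0.176) in the authors' deposited table. Closer to that start, position 12741368 had 5mC of 43.8% in WT and 100% in KO cells, per the authors' deposited table. The largest 5hmC difference of the domain, at position 12790657 in Airn, was lower, with 50% in WT and 5.00% in KO cells in the authors' deposited table.

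**Figure D3:**
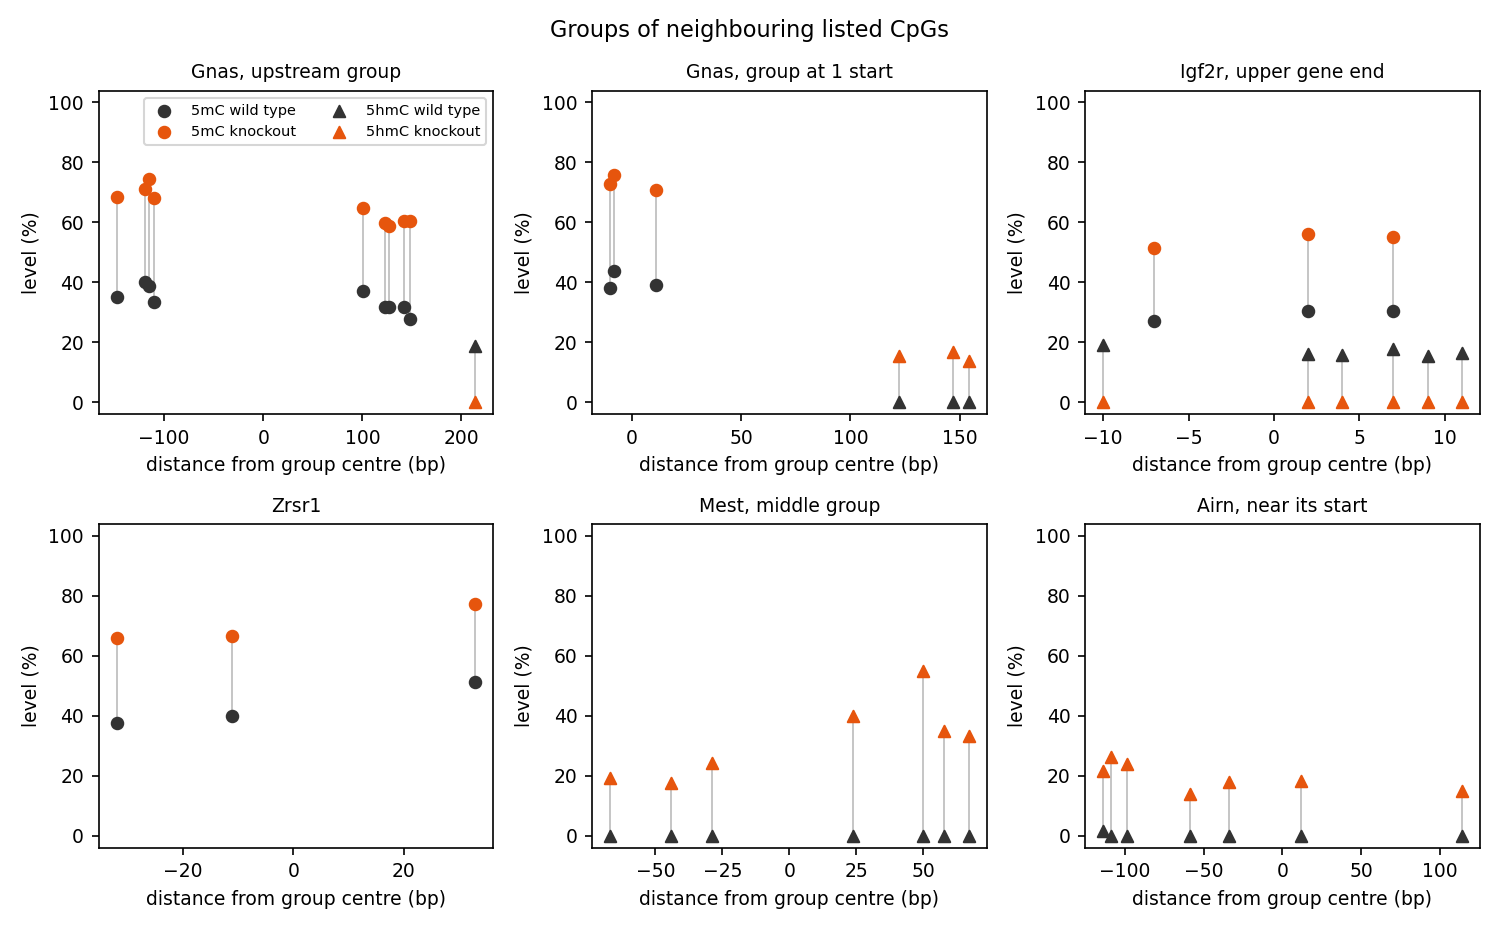
Level in percent at each listed CpG against its distance from the group's centre in bp, for 6 groups; circles are 5mC, triangles 5hmC, dark wild type and orange knockout, with a line joining both values of a CpG. The 5mC groups of Gnas, Igf2r and Zrsr1 are higher in the knockout, and the 5hmC sites of the middle Mest group and of the group near the Airn start are at no more than 1.72% in wild type.

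Mest, a paternally expressed gene of the hydrolase fold family, held 17 5hmC sites and a single 5mC site. The 5mC site, in the Mest stretch above, had 79.5% in WT and 100% in KO cells (p = 0.000391, q = 1, the authors' deposited table). Of the 5hmC sites 15 stood in 3 groups of alternating direction. From 30735284 to 30735508, 5 CpGs had 28 to 30.8% in WT and 0% in KO cells, per the authors' deposited table. From 30737109 to 30737243, 807 to 941 bp before an annotated start, 7 CpGs had 0% in WT and 17.6 to 55% in KO cells, per the authors' deposited table. The highest of them stood at 30737226 (p = 5.76e-06, q = 0.0449, the authors' deposited table). Another 3 CpGs, 220 to 233 bp past a start, had 16.1 to 22.9% in WT and 0 to 1.92% in KO cells, per the authors' deposited table. So a lower, a higher and a lower group follow each other along the gene. Before the gene, position 30732981 had 5hmC of 0% in WT and 57.1% in KO cells in the authors' deposited table. Copg2, a coatomer subunit gene that overlaps the end of Mest, held 2 5hmC sites, of opposite direction, and no 5mC site.

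Zrsr1 is a splicing-factor retrogene inside Commd1, a gene of copper handling. At chr11:22972581-22972646, 3 CpGs of Zrsr1 had 5mC of 37.7 and 66.1%, 40 and 66.7% and 51.2 and 77.4%, WT before KO, in the authors' deposited table. The other 2 Zrsr1 sites were lower, at 96.7 and 62.5% and at 64 and 18.8% in that table. Commd1 beyond Zrsr1 had 1 further 5mC site, 90.5% in WT and 42.9% in KO cells, and 1 5hmC site, 50% in WT and 0% in KO cells, per the authors' deposited table. Nap1l5, a retrogene inside the ubiquitin ligase gene Herc3, had 4 5hmC sites around its start and none for 5mC, with 5hmC of 0% in WT and 17.9 to 23.3% in KO cells in the authors' deposited table. Inpp5f, a phosphoinositide phosphatase gene with an imprinted internal transcript, had 5 neighbouring CpGs with 5hmC of 16.2 to 24% in WT and 0% in KO cells, per the authors' deposited table. In the same stretch, positions 128688038 and 128688091 had 5mC of 30 and 60.4% and 31.0 and 59.3%, WT before KO, in the authors' deposited table. Position 128688091 alone was listed for both marks there, with 5mC higher and 5hmC lower. Just past this stretch, position 128688258 had higher 5hmC, with 0% in WT and 18.6% in KO cells in the authors' deposited table. The largest Inpp5f differences stood elsewhere, with 5mC of 94.3 and 62.5% at 128652944 and 5hmC of 3.45 and 33.3% at 128672573 in the authors' deposited tables.

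Grb10, an adaptor that dampens insulin receptor signalling, had both of its 5mC sites higher and 5 of its 9 5hmC sites higher. At 1580 to 1880 bp past a Grb10 start, 3 CpGs had 5hmC of 0% in WT and 14.1 to 16.7% in KO cells, per the authors' deposited table. Its largest 5hmC difference, at position 12007621, was 0% in WT and 50% in KO cells (p = 0.000263, the authors' deposited table). Peg10, a retrotransposon-derived gene, and Sgce, the epsilon-sarcoglycan gene beside it, shared 2 5mC sites and had no 5hmC site. Both were lower, at 90 and 40% and at 58.5 and 25.8% in the authors' deposited table. In the Peg3 domain 6 of 8 5mC sites were lower, 5 of them in the deubiquitinase gene Usp29 and 1 in the zinc-finger gene Zim1. Peg3, also a zinc-finger gene, held no 5mC site and 2 5hmC sites, at 38.9 and 0% and at 42.1 and 0% in the authors' deposited table. Past the end of Usp29, 5mC at 6968623 was 0 and 100% and 5hmC at 6967837 was 0 and 80%, WT before KO, with p of 0.00794 and 0.00699 in the authors' deposited tables.

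Impact, a regulator of translation, had a 5hmC site with 43.6% in WT and 0% in KO cells (p = 3.02e-06, q = 0.0261, the authors' deposited table), the smallest q of all member sites. Another Impact site was higher, with 5hmC of 0% in WT and 47.1% in KO cells, and its single 5mC site had 7.94% in WT and 27.1% in KO cells, per the authors' deposited tables. Plagl1, a zinc-finger gene that restrains growth, had 2 5mC sites of opposite direction, 0 and 70% and 100 and 33.3%, and a 5hmC site of 0 and 60%, in the authors' deposited tables. Nnat, the neuronatin gene, had 3 5hmC sites in each direction, and the one in its stretch above had 0% in WT and 41.7% in KO cells, per the authors' deposited table. The larger of its 2 5mC differences, at 157561940, was lower, with 100% in WT and 63.6% in KO cells in the authors' deposited table. Slc38a4, an amino acid transporter gene, had its largest 5hmC difference at 97034397, with 16.7% in WT and 81.8% in KO cells in the authors' deposited table.

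Among domains whose control regions carry methylation on the paternal copy, the directions of 5mC were mixed. Sites were counted in gene bodies and 2000 bp on either side, and whether these hold the control regions was not checked. H19, a maternally expressed non-coding RNA, had 4 CpGs 274 to 568 bp from its upper end with 5hmC of 15.2 to 19.1% in WT and 0% in KO cells, per the authors' deposited table. Its 5mC site among them, position 142577777, had 45.2% in WT and 79.0% in KO cells in the authors' deposited table. Igf2, the paternally expressed growth factor gene, had none for 5mC and 3 for 5hmC, of which 2 were lower, the largest at 142655732 with 33.3% in WT and 0% in KO cells in the authors' deposited table. In the Dlk1-Dio3 domain 8 of 9 member 5mC sites were lower, while 40.3% of all listed 5mC sites were higher. All 4 sites of Dlk1, a Notch-ligand-like gene, were among these 8. Their levels were 100 and 50%, 64.7 and 9.09%, 81.8 and 51.8% and 92.7 and 69.8%, WT before KO, in the authors' deposited table. Meg3, a maternally expressed non-coding RNA, had 1 5mC site, before its start, with 88% in WT and 37.5% in KO cells in the authors' deposited table. Rian, a non-coding RNA that hosts small RNAs, had 2, both lower. Dio3, the thyroid hormone deiodinase gene at the far end, had 5mC sites of 0 and 21.6% and 10.9 and 0% in the authors' deposited table. The first of them is the 1 higher member site of the domain. Of the 21 5hmC sites of the domain 10 were higher. At Dlk1 5 CpGs within 132 bp had 5hmC of 13.9 to 17.4% in WT and 0% in KO cells, per the authors' deposited table. The Dlk1 CpG in capitals above had 5hmC of 45% in WT and 0% in KO cells in the authors' deposited table. That CpG lies 117 bp past the lower end of the gene body and before a later annotated start.

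Zdbf2, a paternally expressed zinc-finger gene, had all 4 of its 5mC sites higher, from 32.3 to 56.3% in WT and from 70.3 to 100% in KO cells in the authors' deposited table. The largest difference, at 63264752, was 56.2% in WT and 100% in KO cells in the authors' deposited table. Lower levels stood at 7 of the 12 5hmC sites of Zdbf2, 5 of them within 77 bp with 25.8 to 34.5% in WT and 0 to 3.23% in KO cells, per the authors' deposited table. The largest Zdbf2 5hmC difference was higher and tied between 63251449 and 63275995, each with 0% in WT and 66.7% in KO cells in the authors' deposited table. Rasgrf1, a Ras exchange factor gene, had 1 5mC site, with 93.9% in WT and 51.7% in KO cells (p = 0.000274, the authors' deposited table). Its 3 5hmC sites were all higher, and 89967211 and 89989146 tied for the largest difference, each with 0% in WT and 25% in KO cells in the authors' deposited table.

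At 25 positions in 10 domains both marks were listed, which is 21.0% of the member 5mC sites (23.7% over the whole table) and 11.2% of the member 5hmC sites (17.5% over the whole table). Bisulfite reads both marks alike and oxidative bisulfite reads 5mC alone, so 5hmC is commonly found by subtraction. How the authors derived it is not stated, and the titles number the 5mC and 5hmC libraries differently. The tables can rest on shared libraries, so their directions cannot be taken as independent. At 13 of the positions 5mC was lower, with medians of 96.9% in WT and 63.0% in KO cells, and 5hmC there had medians of 0 and 31.6% in the authors' deposited tables. They lie in Dlk1 (109455604, 109457016), Rian (109608266, 109608977), Igf2r (12685751), Airn (12852910), Usp29 (6781929), Slc38a4 (97000841), Snhg14 (59654040, 59654048, 59764346) and Snrpn (60178077, 60258722). At the other 12, 5mC had medians of 41.9 and 76.0% and 5hmC of 25.2 and 0%, WT before KO, in those deposited tables. These are in Grb10 (11932014, 11939804), H19 (142577777), Igf2r with Airn (12769486, 12769491), Inpp5f (128688091), Herc3 (58843770), Snhg14 (59764485, 59766387, 59803484) and Zdbf2 (63268231, 63303577). At Dlk1 position 109457016 5mC was 64.7 and 9.09% and 5hmC 0 and 63.6% in the authors' deposited tables. The Slc38a4 position had 5mC of 90.9 and 47.6% and 5hmC of 4.55 and 45% in them. In the other direction, Grb10 position 11932014 had 5mC of 59.3 and 94.7% and 5hmC of 33.3 and 0% in the authors' deposited tables. The Herc3 position had 5mC of 39.3 and 75% and 5hmC of 47.6 and 0% there (5hmC p = 1.81e-05, q = 0.11, the authors' deposited table). The sum of both deposited levels was 64.7% in WT and 72.7% in KO cells at that Dlk1 position, and 92.6 and 94.7% at that Grb10 position. Over the 25 positions the sum changed by -11.91 to 16.4 points, and at 21 by no more than 10 points. At 2 positions, in Usp29 and Snhg14, the sum in KO cells was above 100%, up to 103.01%, which the 2 shares of a position cannot reach, so the deposited levels do not add up exactly.

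**Figure D4:**
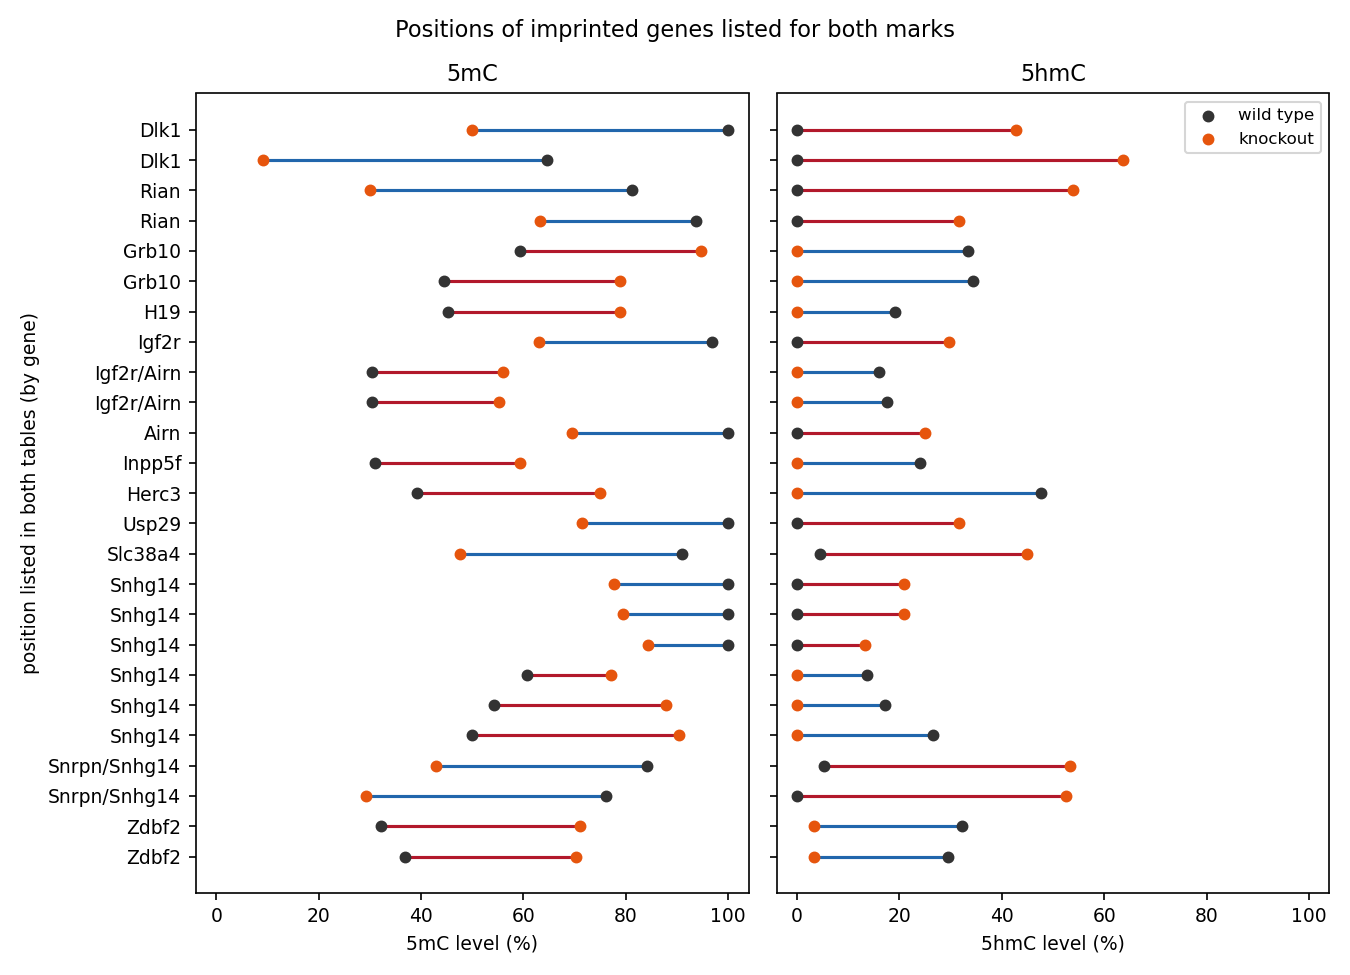
Wild-type (dark) and knockout (orange) levels in percent at the 25 positions listed in both tables, by gene, with 5mC left and 5hmC right; red lines are higher in the knockout and blue lines lower. At Dlk1, Rian and part of Snhg14 5mC is lower, and at Grb10, H19, Inpp5f and Zdbf2 it is higher.

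Snhg14 is a long non-coding RNA of 1177 kb that hosts repeated snoRNA genes and runs antisense to Ube3a. It alone held 51 5mC sites, of which 27 were higher, and 64 5hmC sites, of which 43 were higher. The snoRNA copies, 204 genes over 558 kb with a median of 1872 bp between starts, took in 44 of the 5mC and 54 of the 5hmC sites. Per 100 kb this was 7.89 5mC sites in the stretch of copies and 1.12 in the rest of Snhg14, and for 5hmC 9.68 and 1.60. Near-identical copies can share reads, so levels in this stretch are uncertain. The median absolute 5hmC difference was 20.9 points there and 33.3 points at the 10 sites in the rest of Snhg14. Over all listed 5hmC sites it was 29.2 points. For 5mC it was 34.9 points in the copies, 47.0 at the 7 sites in the rest and 36.15 over all listed sites. The 5hmC site with q under 0.05, position 59764485, had 13.7% in WT and 0% in KO cells (p = 4.59e-06, q = 0.0371), and its 5mC was 60.7 and 77.1% in the authors' deposited tables. The smallest 5mC q of all members, 0.075, stood in this stretch at position 59767533, where 5mC was 57.7 and 43.4% in the authors' deposited table. The largest 5hmC difference, also in the copies, was at 59658238 with 72.7% in WT and 0% in KO cells in the authors' deposited table. Outside the copies, 4 CpGs within 103 bp in Snrpn, a splicing protein gene, had 5hmC of 0% in WT and 31.6 to 52.6% in KO cells, per the authors' deposited table. The largest 5mC difference of the domain, at 60391686 in Snrpn, was 0% in WT and 87.5% in KO cells (p = 0.00466, the authors' deposited table). No listed site lay within 2000 bp of the lowest annotated Snrpn start, position 60005199, and the nearest was 57.6 kb away. Ndn and Magel2, MAGE family genes farther along, held 3 and 1 5hmC sites, all higher, and no 5mC site.

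**Figure D5:**
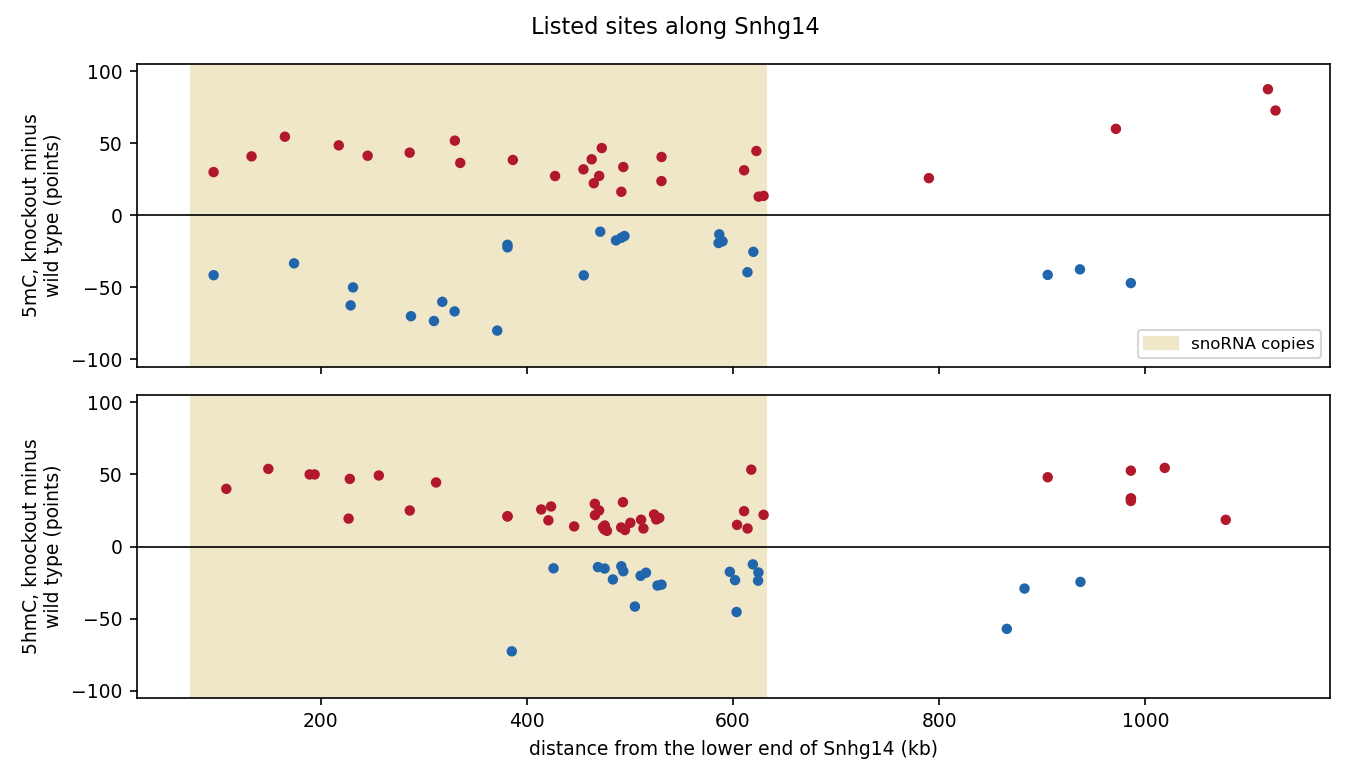
Knockout minus wild-type level in percentage points at each listed site, against distance in kb from the lower end of Snhg14, for 5mC (top) and 5hmC (bottom); red is higher and blue lower, and the shaded stretch holds the snoRNA copies. In the shaded stretch lie 44 of 51 5mC sites and 54 of 64 5hmC sites, in both directions.

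Other genes of imprinted domains were counted in the same way. Of 35 such genes matched, 23 had a 5mC site, beside 42.3% of all genes, and 23 a 5hmC site, beside 49.6%. Gene length, which raises such counts, was not matched here. Of their 82 5mC sites 37 were higher (45.1%, beside 40.3% of all listed 5mC sites), with a median difference of -19.1 points. Of their 100 5hmC sites 59 were higher (59.0%, beside 64.4% of all listed 5hmC sites). Some of these sites are also member sites counted above. They are those of Mas1 in Airn, Rtl1 beside Meg3, Zim3 at Usp29, Gpr1 in Zdbf2 and part of those of Blcap at Nnat. Whether members and these genes differ was not tested. Begain, a synaptic gene upstream of Dlk1, had their single site with q under 0.05, a level reached by 1.08% of all listed 5hmC sites. That site, position 109035516, had 5hmC of 35.9% in WT and 0% in KO cells (p = 1.41e-06, q = 0.0135, the authors' deposited table). From 109033836 to 109034131, 7 further Begain CpGs had 5hmC of 0% in WT and 20.5 to 31.4% in KO cells in the authors' deposited table. For 5mC, Begain and Wdr25, both of the Dlk1-Dio3 domain, each had 4 of 6 sites higher. Mirg, of the same domain, had 1 5mC site, which was lower. Slc22a3, an organic cation transporter gene that Airn silences in mouse placenta, had 3 5mC sites, all higher. Trappc9, host of the imprinted Peg13, had 12, with 6 in each direction.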

How the data were processed

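Per the labels' protocols, LSK cell DNA with added lambda DNA was broken by ultrasound, joined to methylated adapters, treated with bisulfite, amplified and sequenced. Aligner, caller, test and coverage filter: not given in the sources used here, and depth is unknown. Per the file headers, both tables give a wild-type (WT) and a knockout (KO) level per position as a fraction, their difference as a score from -1 to 1, a p-value and a q-value, all made by the authors and used as deposited. Which libraries entered each level is not stated. Levels are printed as percent. No test of the present work was run, since each group is 1 library.

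The submitters' processing notes name GRCm39. All 412 5mC and 778 5hmC positions inside RefSeq GRCm38.p6 promoter windows fell on the C of a CpG, against 4.25% and 3.45% when moved by 10 bp, so positions are given as GRCm38. All 34 members were matched to the gene table by symbol, and 35 of 36 other genes of imprinted domains. Counting used Python 3.11.15, pandas 2.3.3 and scipy 1.17.1 and was tested on simulated sites. A site in overlapping genes was counted once in totals. Named are, per domain and table, the site with the largest difference, sites with q under 0.05, positions in both tables and sites in promoter windows; groups and other single sites were chosen after their values were seen. The members and lists were chosen with earlier results of these data known. Alternatives changed the flank, the difference, the p limit, sites at 0 or 100% and single domains.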

Additional observations from a re-analysis of the deposited data

How the results depend on the processing

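Over 9 alternatives, 70 of 99 values stayed close to those reported, 26 moved further and 3 medians changed sign. As each listed difference is at least 10 points, a signed median follows the majority direction, so these sign changes are not separate from the shares. Shares were judged by the Wilson interval of the reported share, so a share could turn from mostly higher to mostly lower outside those 3. Without Snrpn-Ube3a the 5hmC share higher, 49.7%, counted as close, and other such shares below counted as moved. The cause was not tested, and each stricter alternative keeps fewer sites by construction. Counting positions within 2000 bp of a gene end alone left 22 5mC sites (68.2% higher) at 15 genes and 56 5hmC sites (44.6% higher, median -14.76 points) at 17 genes, with 0 5hmC sites of q under 0.05 and 4 positions in both tables. Differences of at least 25 points left 100 5hmC sites (64.0% higher, median 29.4 points) and 16 positions in both tables. With deposited p under 0.001, 13 5mC sites at 7 genes (30.8% higher, median -30.56 points), 38 5hmC sites at 15 genes (68.4% higher) and 2 positions in both tables remained. Leaving out sites at exactly 0 or 100% left 75 5mC sites, 31 5hmC sites (64.5% higher) at 15 genes, 0 of q under 0.05, and 4 positions in both tables. Without Snrpn-Ube3a there were 68 5mC sites and a median 5hmC difference of -10.91 points. Leaving out Gnas, an alternative chosen after seeing the data, gave medians of 13.2 points for 5mC and 14.9 for 5hmC. Counting positions 1 bp apart once changed none of the 11 values. All positions checked fell on the C of a CpG, so this alternative had nothing to merge. Its values are among the 70 by construction. No paired analysis was possible because each group is 1 library and the tables hold the authors' comparison, not libraries. Unknown coverage limits every single-site level.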
